A study of Schizosaccharomyces pombe with 29 samples.

Results

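The genes described here code for the translation factors of fission yeast, Schizosaccharomyces pombe. They were chosen by a rule on annotation, which was set with earlier results of these data known. A gene was taken when its product in the authors' deposited table for the T4A allele names a translation initiation, elongation, release or termination factor. This gave 52 of the 6986 gene IDs in the deposited count table, of which 44 act in the cytosol and 8 in mitochondria. By product, 4 belong to the cap-binding group eIF4, 4 to eIF2 and its assembly, 5 to eIF2B, 11 to eIF3, 8 to the other initiation factors, 8 to elongation and 4 to release and ribosome rescue. The table gives no name for a pair of them, SPAC25G10.08 (eIF3b) and SPAC29A4.02c (the gamma subunit of eEF1B), which are called by their IDs.

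Translation starts when eIF4F, made of the cap-binding protein eIF4E, the scaffold eIF4G and the helicase eIF4A, prepares an mRNA for the small ribosomal subunit, which carries eIF1, eIF1A, eIF3 and the complex of eIF2, GTP and initiator tRNA. eIF2B reloads eIF2 with GTP, and kinases that phosphorylate eIF2 slow this step under stress. eEF1A then brings each aminoacyl-tRNA, eEF2 moves the ribosome, fungi also need eEF3, and eRF1 with eRF3 ends the chain at a stop codon. Mitochondria use a separate set of nuclear-encoded factors of bacterial type.

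Polyadenylated RNA was sequenced from strains with altered tails of RNA polymerase II. The tail, or CTD, belongs to the Rpb1 subunit and repeats the heptad YSPTSPS, which is phosphorylated as the polymerase moves along a gene. All strains grew in log phase in rich YES medium at 30 °C. The control, h+ rpb1-CTD-WT29::NatMX, has 29 unchanged heptads and was measured as control set 1 and as control set 2, with 3 libraries each. Y1F (h+ rpb1-CTD-Y1F29::NatMX), S2A (h+ rpb1-CTD-S2A29::NatMX) and S2A-S7A also have 29 heptads and h+ mating type, and the labels assign them to control set 1. ALT-P3A, ALT-S5A and ALT-P6A (for example h+ rpb1-CTD-(ALT-P3A)29::NatMX) have 29 heptads and are assigned to control set 2. What ALT stands for is not given. T4A (rpb1-CTD-T4A29, with no further genotype in the labels) and WT18, a CTD shortened to 18 unchanged heptads, are also assigned to control set 2. Each of these alleles has 3 libraries except WT18, which has 4. Of the WT18 libraries 2 are new (h+ rpb1-CTD-WT18::NatMX) and 2 come from an earlier series, with the opposite mating type and other markers (h- ade6 ura4-D18 leu1-32), RNA from a column kit, another library kit and an older instrument. T4A was also taken from an earlier series and was sequenced on another instrument than the new libraries. Marker genotype, mating type, RNA kit and instrument therefore cannot be told apart within the earlier WT18 pair, nor instrument and allele in T4A. Counts per gene do not show the heptads, so they do not check the alleles. Nothing in the labels says that replicates came from separate cultures, so p-values measure the spread between these libraries, which may be technical.

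The 31 libraries held 15243598 to 35763201 counts, with a median of 22835109. All 52 genes passed the filter on low counts in every comparison, and the lowest count was 3 reads, for the mitochondrial release factor gene pth4. The translation factor genes took 2.74% to 3.81% of all counts of a library. Levels are given as CPM, counts per 1000000 after scaling all libraries together, and as CPM per kb of exon where genes are compared with each other. Per kb, the beta subunit gene tef5 of eEF1B (median of the group means 3680 CPM per kb) and the eIF4A gene tif1 (3550 CPM per kb) were the most abundant. Next came the eEF3 gene tef3 with 993 CPM per kb and the eEF1A copy tef103 with 989 CPM per kb. The mitochondrial genes mef2 (3.95 CPM per kb) and pth4 (1.24 CPM per kb) were the scarcest. The 3 eEF1A genes tef101, tef102 and tef103 are 98.6% to 98.9% identical over their coding sequence and the 2 eEF2 genes eft201 and eft202 are 99.6% identical. Reads could therefore be shared or lost between copies. The split among the copies is uncertain, and so is their level beside genes of 1 copy.

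Libraries of 1 group differed along a shared axis. After the group means were removed, 58.8% of the remaining variance of the 52 genes lay on a single axis, against 44.7% for 5556 genes above 0.5 CPM in every library. The genes with the strongest positive weight were rrf1 and mti3 of mitochondria, the eIF1A-like gene tif1102, cdc123, tif5, hcr1 and tif212, while all 8 elongation genes had negative weights. The library with the lowest score was replicate 2 of T4A (-1.76), followed by replicate 4 of control set 2 and replicate 1 of S2A-S7A (both -1.65). Replicate 5 of control set 2 had the highest score (1.39), so the 3 libraries of control set 2 spanned most of the range. On the axis of the wider gene set these libraries also lay at the ends. Replicate 2 of T4A had -16.87, replicate 1 of S2A-S7A -16.54, replicate 4 of control set 2 -15.72 and its replicate 5 14.46. The axis was thus shared with genes at large and not particular to the translation factor genes. In hcr1, which codes for eIF3j, the libraries of control set 2 had 40.1, 75.6 and 61.4 CPM. What moves the libraries along this axis was not tested.

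**Figure D1:**
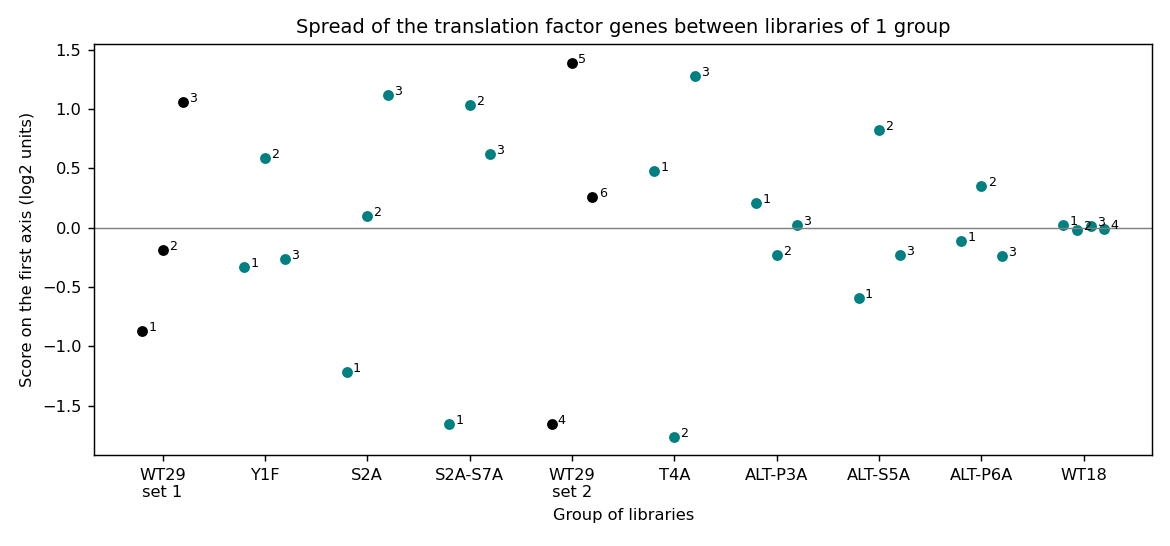
Score of each of the 31 libraries on the first axis of the spread within groups, computed from log2 CPM of the 52 translation factor genes after the mean of each group was removed (the new and the earlier WT18 libraries were centred apart). Numbers are replicate numbers; control set 2 runs from -1.65 to 1.39 and ALT-P3A only from -0.23 to 0.21.

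The 2 control sets carry the same strain label, yet 27 of the 52 genes were lower in set 2 and 2 were higher by edgeR's quasi-likelihood test at an adjusted p under 0.05, the threshold for rose and fell throughout. Among all 6043 genes tested, 19.5% fell and 24.5% rose, and 3 translation factor genes changed at least 2-fold against 8.89% of all genes. All 8 elongation genes were lower in set 2, with a median log2 fold change of -0.79, while the median over all genes was -0.02. The eEF1A copy tef101 had 1900, 1760 and 1580 CPM in the libraries of set 1 and 928, 855 and 720 CPM in those of set 2. The sets did not overlap, and the log2 fold change was -1.07 ± 0.11 (SE, adjusted p = 0.00011). The eIF5 gene tif5, whose product stimulates GTP hydrolysis by eIF2, fell from 495, 520 and 745 CPM to 157, 288 and 241 CPM (log2 fold change -1.36 ± 0.22, adjusted p = 0.0013). The genes tef103 (-1.03, adjusted p = 0.00013) and rrf1 (-0.98, adjusted p = 0.024) were also lower, and tif1 (0.27, adjusted p = 0.03) and the eIF6-like gene tif6 (0.23, adjusted p = 0.033) were higher on the log2 scale. The call of rrf1 was lost without replicate 6 of set 2, and both rises were lost without replicate 2 or 3 of set 1 or replicate 4 or 6 of set 2. Because the sets differ this much in these genes, each allele is given below against its own control set and then against both, where a gene counts only if it was called in 1 direction against each set. The 2 fits share the libraries of the allele, so they are not independent. The columns of set 2 were assigned to its record by elimination. The authors' control means for its alleles could not be rebuilt from these columns, with a median error of 14.45% over the 52 genes. All results with set 2 rest on this assignment.

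**Figure D2:**
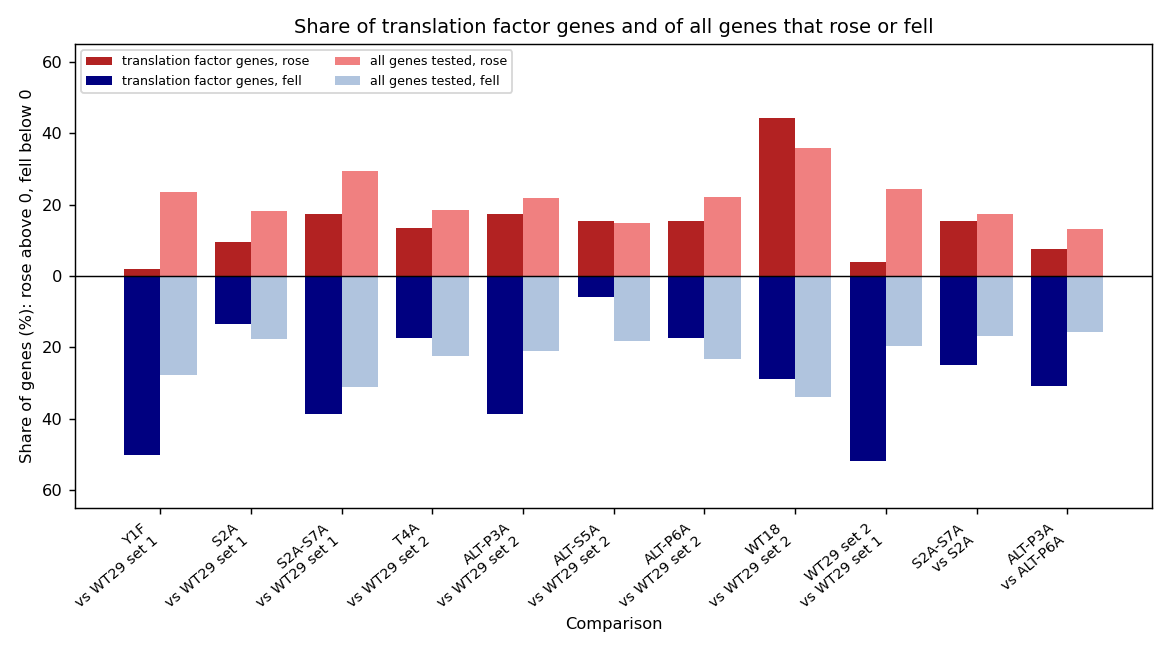
Share of the 52 translation factor genes (dark bars) and of all genes tested (light bars) that rose (above 0) or fell (below 0) in each of the 11 comparisons, at an adjusted p under 0.05 in edgeR's quasi-likelihood test. In Y1F 50% of the translation factor genes fell against 27.6% of all genes, and in control set 2 against set 1 51.9% fell against 19.5%.

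In Y1F, 26 of the 52 translation factor genes fell and 1 rose, against 27.6% and 23.6% of all 6006 genes tested. This balance depended on the control: against control set 2 the same libraries gave 12 falls and 18 rises. The falls comprised 6 of 8 elongation genes, 5 of 11 eIF3 genes, 3 of 5 eIF2B genes, 3 of 4 eIF2 genes, 4 of 8 other initiation genes, 2 of 4 release and rescue genes and 3 of 8 mitochondrial genes. The 4 eIF4 genes did not pass the test and had log2 fold changes from -0.18 to 0.15. The median of the 52 genes was -0.25 on the log2 scale and that of all genes -0.02. The largest falls were in tuf1, which codes for mitochondrial EF-Tu (-0.94 ± 0.08, adjusted p = 7.7e-07), in tef102 (-0.92 ± 0.08, adjusted p = 7.9e-07), in tef101 (-0.79 ± 0.09, adjusted p = 7.9e-06) and in the eIF2 gamma gene tif213 (-0.77 ± 0.09, adjusted p = 1.7e-05). The rise was in cdc123, whose product assembles eIF2 (0.38 ± 0.14, adjusted p = 0.03), and it was lost without replicate 1 or 2 of control set 1 or replicate 2 of Y1F. Without replicate 3 of control set 1, 7 genes rose. Against both control sets 11 genes fell and 1 rose, where 15.8% and 14.8% of all genes did. The 11 were erf1, sup35, tif32, SPAC25G10.08, tif35, tif223, sce3, tif11, eif21, mti2 and tuf1, and the riser was cdc123. Another 7 genes were called in opposite directions against the 2 sets, among them tef101, tef103, tef3 and eft202: against control set 2 tef101 was higher in Y1F (0.29, adjusted p = 0.017). The cytosolic ribosomal protein genes fell as well in Y1F against control set 1, 101 of 130 with a median of -0.32. Of the same 130 genes 50 were also lower in control set 2 than in set 1, with a median of -0.14.

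In S2A, 5 translation factor genes rose and 7 fell, against 18.2% and 17.5% of 6016 genes, and 1 changed at least 2-fold against 12.9%. All 3 eEF1A genes rose, tef101 by 0.64 ± 0.13 (adjusted p = 0.0041), tef102 by 0.54 ± 0.12 (adjusted p = 0.0059) and tef103 by 0.39 ± 0.13 (adjusted p = 0.043) on the log2 scale. The largest rise was in tsf1, which codes for mitochondrial EF-Ts, the exchange factor of EF-Tu (0.89 ± 0.16, adjusted p = 0.0019). The second eIF4E gene tif452 rose by 0.40 ± 0.10 (adjusted p = 0.0099). Of the 8 mitochondrial genes 4 fell: pth4 (-2.14 ± 0.39, adjusted p = 0.0019), the EF-G gene mef1 (-0.57, adjusted p = 0.021), tuf1 (-0.43, adjusted p = 0.015) and the IF-2 gene mti2 (-0.43, adjusted p = 0.028). Without replicate 2 of control set 1 the counts were 3 and 4, and without replicate 1 of S2A 4 fell. The call of tif452 was lost without replicate 2 of control set 1, that of mef1 without replicate 3 of control set 1 or replicate 1 of S2A, and that of mti2 without replicate 1 or 2 of control set 1 or replicate 2 or 3 of S2A. Against both control sets 5 genes rose, tef101, tef102, tef103, tsf1 and tif452, and 1 fell, pth4, where 11% and 9.68% of all genes did. Against control set 2 mef1 had 0.05 and tuf1 0.25, and neither passed the test.

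In S2A-S7A, 9 genes rose and 20 fell, against 29.4% and 31.1% of 6006 genes, and 4 changed at least 2-fold against 15.5%. The falls included 6 of 8 mitochondrial genes, the rescue genes dom34 and hbs1, cdc123, tif1102, tif5 and the eIF4E gene tif45, which had -0.96 ± 0.12 (adjusted p = 0.00028). The largest were in pth4 (-1.95 ± 0.31, adjusted p = 0.00089), cdc123 (-1.45 ± 0.20, adjusted p = 0.00046), tif1102 (-1.15 ± 0.25, adjusted p = 0.004) and the ribosome recycling factor gene rrf1 (-1.14 ± 0.35, adjusted p = 0.02). Like tif45, tif5, dom34 and hbs1, these genes have a positive weight on the axis of spread between libraries. The call of rrf1 was lost without replicate 2 or 3 of control set 1 or replicate 3 of S2A-S7A. The rises were small, at most 0.39 ± 0.07 in the eIF2B beta gene tif222 (adjusted p = 0.0018), then tif1 (0.29, adjusted p = 0.011), tif6 (0.26, adjusted p = 0.013) and the eIF1 gene sui1 (0.24, adjusted p = 0.0099). Without replicate 2 of control set 1, 3 genes rose and tif1 was not called, and without replicate 3 of S2A-S7A, 2 rose and neither tif1 nor tif6 was called. The 8 elongation genes had log2 fold changes from -0.15 to 0.19 and did not pass the test. The calls against both control sets were 3 rises (tif222, the eIF3h gene tif38 and the eIF4B-like gene sce3) and 8 falls (pth4, cdc123, tif224, tif32, hbs1, dom34, tif11 and mef2), where 16.6% and 13.5% of all genes did. The genes tif5, tif33 and tuf1 fell against control set 1 and rose against control set 2, tif5 by 0.61 (adjusted p = 0.017), and there rrf1 had -0.14, tif45 -0.15 and tif1102 -0.63, none of them called.

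In T4A, 7 genes rose and 9 fell, against 18.4% and 22.4% of 6018 genes, and 2 changed at least 2-fold against 13.2%. The largest rises were in rrf1 (1.17 ± 0.30, adjusted p = 0.012), cdc123 (0.83 ± 0.26, adjusted p = 0.027), tif45 (0.70 ± 0.17, adjusted p = 0.0097) and hcr1 (0.70 ± 0.22, adjusted p = 0.029), all genes with a positive weight on the axis of spread between libraries. The largest falls were in pth4 (-1.01, adjusted p = 0.032), mti2 (-0.71 ± 0.16, adjusted p = 0.0059), the eIF3a gene tif32 (-0.59 ± 0.09, adjusted p = 0.00074) and the eRF3 gene sup35 (-0.44 ± 0.11, adjusted p = 0.011). Single libraries moved these counts: 3 rose without replicate 1 of T4A, 11 without replicate 2, 3 without replicate 4 and 2 without replicate 6 of control set 2. Likewise 3 fell without replicate 1 and 5 without replicate 3 of T4A, and 4 without replicate 4 or 5 of control set 2. The call of rrf1 was lost without replicate 6 of control set 2, those of cdc123 and hcr1 without replicate 1 of T4A or replicate 4 or 6 of the control, that of pth4 without any of the 6 libraries, and that of sup35 without replicate 4 of the control. When both control sets were required 1 gene rose, the eIF2B alpha gene tif221, and 7 fell, mti2, tif32, sup35, tif11, tuf1, SPAC25G10.08 and pth4, where 9.79% and 10.8% of all genes did. The 4 largest rises were not called against control set 1, where rrf1 had 0.17, cdc123 0.27, tif45 -0.11 and hcr1 0.12.

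In ALT-P3A, 20 genes fell and 9 rose, against 21% and 21.8% of 6081 genes. Of the 8 elongation genes 7 fell, from -0.45 ± 0.09 in SPAC29A4.02c (adjusted p = 0.0047) to -0.21 ± 0.06 in eft202 (adjusted p = 0.019), and tef5 had -0.11. Other large falls were in tuf1 (-0.62 ± 0.08, adjusted p = 0.00092), in erf1, the gene of eRF1 (-0.55 ± 0.06, adjusted p = 0.00031), and in mti2 (-0.44 ± 0.09, adjusted p = 0.005). Leaving out 1 ALT-P3A library gave 12 falls (replicate 1), 13 (replicate 2) or 11 (replicate 3). The largest rises, rrf1 (0.88, adjusted p = 0.022), mti3 (0.84, adjusted p = 0.04), tif1102 (0.77, adjusted p = 0.02) and cdc123 (0.75, adjusted p = 0.02), were each lost without replicate 1 of ALT-P3A or replicate 6 of control set 2. With either of these libraries left out 4 genes rose, and 14 rose without replicate 5 of control set 2. With both control sets required all 20 falls were called, where 9.08% of all genes fell, while none of the 9 rises was called as a rise against control set 1 (edgeR, adjusted p under 0.05). There rrf1 had -0.11, mti3 -0.06, tif1102 0.24 and cdc123 0.18 on the log2 scale. The 20 falls were the 7 elongation genes, erf1 and sup35, tuf1 and mti2, 5 eIF3 genes and tif213, tif223, eif21 and sce3. In the authors' deposited table erf1, sup35, eft201, eft202, tif223, sce3 and the 5 eIF3 genes were not called, with log2 fold changes from -0.08 to 0.10. The rest of the 20 were called lower there as well.

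In ALT-S5A, 8 genes rose and 3 fell, against 14.9% and 18.1% of 6086 genes. The largest rises were in the mitochondrial IF-3 gene mti3 (0.95 ± 0.29, adjusted p = 0.024), tif5 (0.76 ± 0.16, adjusted p = 0.0038), hcr1 (0.63 ± 0.17, adjusted p = 0.013) and the eIF2 beta gene tif212 (0.53 ± 0.13, adjusted p = 0.0095). The falls were mti2 (-0.62 ± 0.12, adjusted p = 0.0019), clu1 (-0.42 ± 0.10, adjusted p = 0.0075) and tif32 (-0.28 ± 0.09, adjusted p = 0.04). The call of mti3 was lost without replicate 2 of ALT-S5A or replicate 6 of control set 2, that of clu1 without the latter, and that of tif32 without replicate 1 or 2 of ALT-S5A or any library of control set 2. Without replicate 6 of control set 2 only 1 gene fell. Against both control sets 1 gene rose, tif452, and 3 fell, mti2, tif32 and clu1, where 6.66% and 6.69% of all genes did. Against control set 1 mti3 had 0.07, hcr1 0.08 and tif212 -0.29, none of them called, and tif5 fell (-0.59, adjusted p = 0.0019).

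In ALT-P6A, 8 genes rose and 9 fell, against 22.1% and 23.3% of 6090 genes, and 1 changed at least 2-fold against 6.35%. The largest rises were in mti3 (1.04 ± 0.29, adjusted p = 0.017), tif5 (0.80 ± 0.18, adjusted p = 0.0054), hcr1 (0.78 ± 0.18, adjusted p = 0.0068) and tif452 (0.67 ± 0.07, adjusted p = 8.8e-05). The largest falls were in pth4 (-0.95 ± 0.35, adjusted p = 0.05 after rounding and just under the threshold), mti2 (-0.66 ± 0.10, adjusted p = 0.00084), clu1 (-0.32 ± 0.07, adjusted p = 0.0049) and SPAC25G10.08 (-0.26 ± 0.06, adjusted p = 0.0085). Without replicate 1 or 2 of ALT-P6A 4 genes fell, and without its replicate 3 or replicate 4 of control set 2 5 fell, while 15 rose without replicate 5 of control set 2. The call of mti3 was lost without replicate 6 of control set 2, that of SPAC25G10.08 without replicate 1 of ALT-P6A, and that of pth4 without replicate 2 or 3 of ALT-P6A or any library of control set 2. Against both control sets 1 gene rose, tif452, and 9 fell, mti2, tif32, clu1, pth4, SPAC25G10.08, tif223, eft201, eft202 and tuf1, where 10.3% and 10.6% of all genes did. Against control set 1 mti3 had 0.13 and hcr1 0.20, neither called, and tif5 fell (-0.58, adjusted p = 0.0042).

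In WT18 23 translation factor genes rose and 15 fell, against 35.8% and 33.8% of 6149 genes, and 28 changed at least 2-fold against 36.5%. The rises were in 7 of 8 mitochondrial genes, with a median log2 fold change of 1.43 over the 8, in the 3 eIF4 genes other than tif1, in the rescue genes dom34 and hbs1, in the eIF2 genes cdc123, tif212 and tif213, in the eEF1A genes tef102 and tef103, and in tif5, tif52, tif1102, hcr1, tif33 and tif224. The falls were in 5 of 11 eIF3 genes, tif1, erf1, tif6, sui1, eif21, sce3, tef5, eft202 and the eIF2B genes tif221 and tif222. The new and the earlier libraries were also compared with control set 2 apart. In both fits alike 23 genes rose and 14 fell, where 33.3% and 27.8% of the 6074 genes tested in all these fits did. The 23 rises were those listed above. The 14 falls included eft201 and lacked sui1 and tif222, which fell in the new but were not called in the earlier libraries. Against both control sets 15 rose and 15 fell, where 27.3% and 24.6% of all genes did. The 15 rises were tif471, tif452, tif212, cdc123, hcr1, tif52, tif1102, dom34, hbs1 and the mitochondrial genes pth4, mef1, mef2, rrf1, mti3 and tsf1, and the 15 falls were those listed above. All 15 rises were in genes with a positive weight on the axis of spread between libraries, and all 15 falls in genes with a negative weight. This split was not counted over all genes, so it is not shown to be particular to the translation factor genes. Whether that axis enters these changes was not tested. The other rises were not called as rises against control set 1, where tif5 had -0.10, tef102 0.17 and tef103 -0.26, and tif213 fell. The cytosolic ribosomal protein genes also fell in WT18, 100 of 130 with a median of -0.87.

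**Figure D3:**
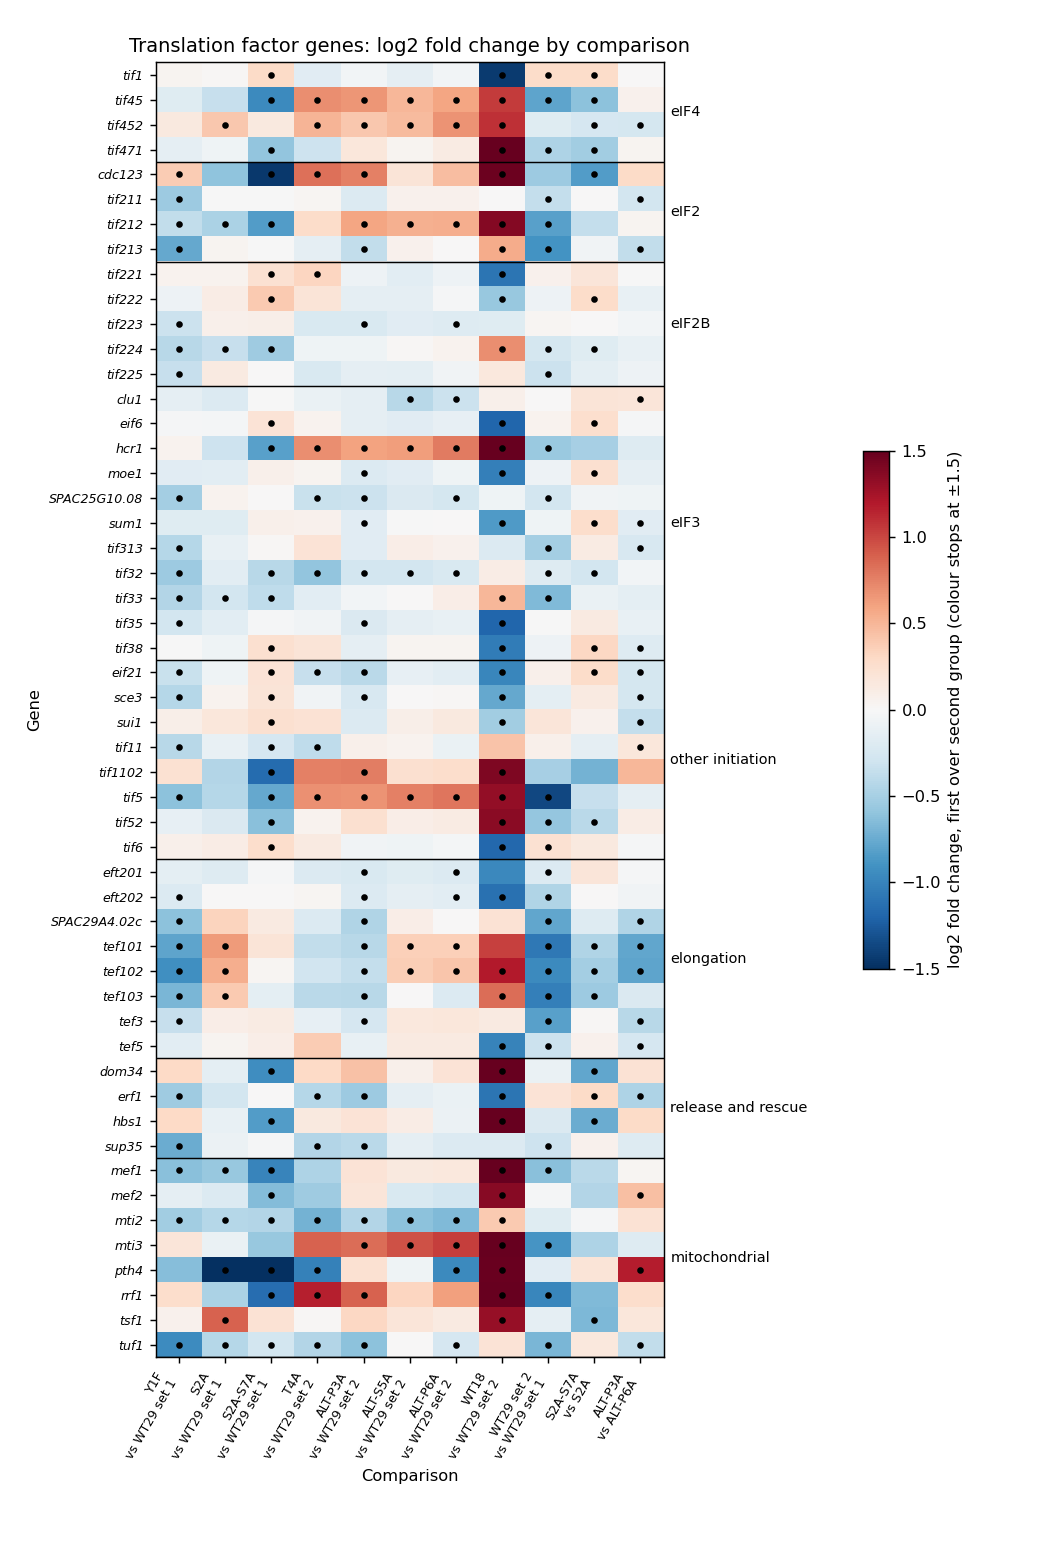
Log2 fold change (colour, stopping at 1.5 in either direction) of the 52 translation factor genes, in rows grouped by role, in the 11 comparisons, in columns; a dot marks an adjusted p under 0.05. The WT18 column holds 38 dots and the strongest colours in both directions, and the control set 2 against set 1 column is blue in all 8 elongation genes.

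Among the eIF4 genes, WT18 moved the subunits of eIF4F in opposite directions. The helicase gene tif1 had 5830, 5410 and 6120 CPM in control set 2, 1710 and 1660 CPM in the new WT18 libraries and 2290 and 2760 CPM in the earlier ones. Every WT18 library lay below every control library, with a log2 fold change of -1.43 ± 0.17 (adjusted p = 0.00034), and against control set 1 it was -1.22 (adjusted p = 0.00085). The scaffold gene tif471 (eIF4G) had 255, 337 and 293 CPM in control set 2, 734 and 790 CPM in the new and 869 and 1100 CPM in the earlier WT18 libraries. It rose by 1.60 ± 0.17 (adjusted p = 0.00023) on the log2 scale, and by 1.07 (adjusted p = 0.001) against control set 1. The cap-binding gene tif45 rose by 1.05 ± 0.17 (adjusted p = 0.00092), but against control set 1 its log2 fold change was 0.19 (adjusted p = 0.17), since set 2 was the lower of the sets. Its second copy tif452, described in the table as a stress response factor, had 58.8, 66.4 and 65.8 CPM in control set 2, 105 and 103 CPM in the new and 143 and 180 CPM in the earlier WT18 libraries (1.09 ± 0.19, adjusted p = 0.0016). Per kb, the median of the group means was 3550 for tif1, 156 for tif45, 80.6 for tif452 and 70.2 CPM for tif471.

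The gene tif452 also rose in S2A, T4A and the 3 ALT alleles against their assigned controls. It had 98.3, 104 and 99.7 CPM in ALT-P6A, 87.3, 88.6 and 93.7 CPM in ALT-S5A, and 68.8, 67.3 and 80.3 CPM in control set 1. Libraries of both alleles lay above all 6 control libraries. In the authors' deposited table its log2 fold change was 0.40 in ALT-P6A, 0.24 in ALT-S5A, 0.30 in T4A and 0.14 in ALT-P3A, the last with an adjusted p of 0.102. Against control set 1 tif452 was not called in ALT-P3A (0.21, adjusted p = 0.052) or T4A (0.32, adjusted p = 0.06).

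**Figure D4:**
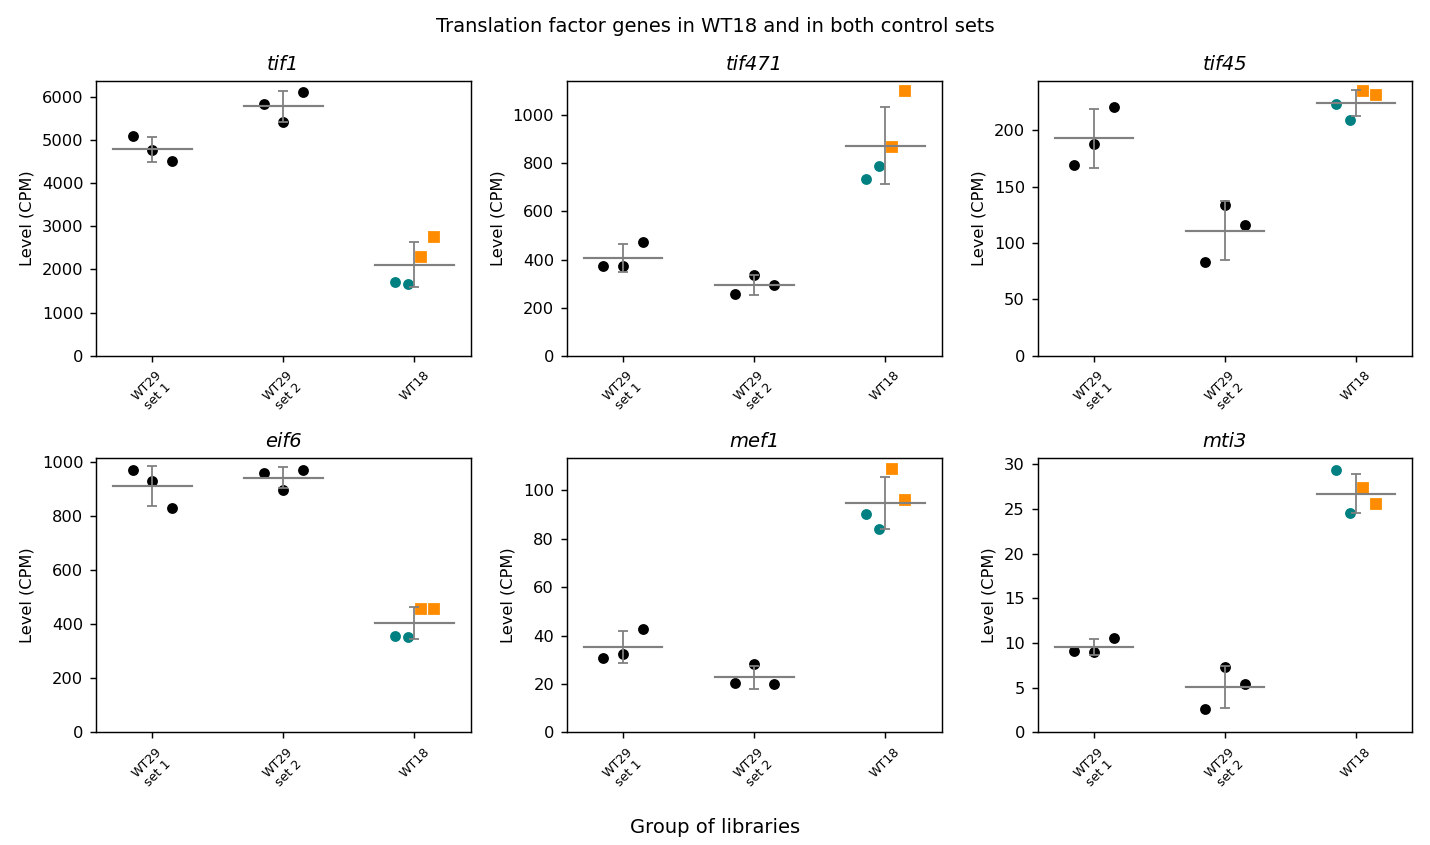
Level in CPM (vertical axis from 0) of 6 translation factor genes in each library of control set 1, control set 2 and WT18; lines and bars are mean and SD, circles are new libraries and orange squares the earlier WT18 libraries. The eIF4A gene tif1 and the eIF3f gene eif6 are lower in all 4 WT18 libraries than in the 6 control libraries, and tif471, mef1 and mti3 are higher.

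The eIF2 genes code for the alpha (tif211), beta (tif212) and gamma (tif213) subunits and for the assembly protein Cdc123. In Y1F tif211 had -0.55 ± 0.08 (adjusted p = 6.6e-05) and tif213 -0.77, but neither passed against control set 2, with 435, 411 and 407 CPM of tif211 in Y1F and 504, 462 and 422 CPM in that set. The gene tif213 had 243, 242 and 220 CPM in ALT-P3A, below the 309, 290 and 313 CPM in ALT-P6A and the 331, 309 and 279 CPM in control set 2 (ALT-P3A against ALT-P6A -0.37 ± 0.07, adjusted p = 0.002). The gene cdc123 was scarce and variable: it had 5.67, 8.88 and 7.61 CPM in S2A-S7A, 16.6, 21 and 22.9 CPM in control set 1, 9.44, 18.3 and 13.5 CPM in control set 2, and 35.1 to 40.1 CPM in the 4 WT18 libraries. S2A-S7A lay below all 6 control libraries and WT18 above them. In WT18 its log2 fold change was 1.47 ± 0.22 (adjusted p = 0.0008), and tif212 rose by 1.38 ± 0.19 (adjusted p = 0.00056) and tif213 by 0.56 ± 0.14 (adjusted p = 0.0073), while tif211 had 0.01 ± 0.19. Against control set 1 tif213 was lower in WT18 (-0.41, adjusted p = 0.046).

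The eIF2B genes code for 5 subunits. The alpha subunit gene tif221 had 129 and 121 CPM in the new and 165 and 171 CPM in the earlier WT18 libraries, below the 302 to 338 CPM of control set 2 (-1.09 ± 0.13, adjusted p = 0.0003). The delta subunit gene tif224 had 0.70 ± 0.17 in WT18 (adjusted p = 0.0071), and 0.38 (adjusted p = 0.088) against control set 1. The delta gene fell in all 3 alleles compared with control set 1, by 0.42 ± 0.07 in Y1F (adjusted p = 0.00014), 0.35 ± 0.08 in S2A (adjusted p = 0.0054) and 0.53 ± 0.06 in S2A-S7A (adjusted p = 0.00016) on the log2 scale. These 3 comparisons share the control libraries, and against control set 2 only the call in S2A-S7A held (-0.25, adjusted p = 0.024). In WT18 the call of tif222 (-0.57 ± 0.22, adjusted p = 0.049) rested on libraries that overlapped the controls, and it had -0.97 in the new and -0.09 in the earlier libraries.

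The 11 eIF3 genes split in WT18 by subunit. The genes of eIF3d (moe1), eIF3f (eif6), eIF3g (tif35), eIF3h (tif38) and eIF3i (sum1) fell, with log2 fold changes from -1.19 to -0.85, and each was called in the new libraries, in the earlier ones and against control set 1. The eif6 gene had 355 and 352 CPM in the new and 458 and 456 CPM in the earlier WT18 libraries, and 960, 897 and 971 CPM in control set 2. The groups did not overlap, and the log2 fold change was -1.19 ± 0.12 (adjusted p = 0.0002). The genes of eIF3a (tif32, 0.11), eIF3b (SPAC25G10.08, -0.07) and eIF3m (tif313) and the gene clu1 did not pass the test. The gene of eIF3c (tif33) rose by 0.50 ± 0.09 (adjusted p = 0.0022) and that of the loosely bound eIF3j (hcr1) by 1.57 ± 0.22 (adjusted p = 0.0006). Against control set 1 hcr1 rose by 0.94 (adjusted p = 0.0011), but tif33 had -0.22 (adjusted p = 0.066). In the other alleles the changes were smaller, and tif32 fell in 6 of 7 of them. It had 397, 420 and 418 CPM in Y1F, 346, 373 and 327 CPM in T4A, 403, 445 and 403 CPM in ALT-P3A, and 588, 558 and 588 CPM in control set 1 and 490, 515 and 512 CPM in control set 2. It fell against both control sets in Y1F, S2A-S7A, T4A and the 3 ALT alleles, by 0.23 to 0.59 on the log2 scale against their own set. In the authors' deposited tables it was called lower in Y1F, S2A-S7A and T4A and had 0.02 to 0.05 in the 3 ALT alleles.

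Of the other initiation genes, tif6, sui1, eif21 and sce3 fell and tif5, tif52 and tif1102 rose in WT18. The fall of sui1 was called in the new but not in the earlier libraries. The eIF5B gene tif52, whose product joins the ribosomal subunits, had 405, 410, 415 and 389 CPM in the 4 WT18 libraries and 145, 189 and 153 CPM in control set 2 (1.35 ± 0.13, adjusted p = 0.00019), and 0.71 against control set 1 (adjusted p = 0.0014). The gene tif6, which acts in ribosome biogenesis, had 344 and 281 CPM in the new and 248 and 220 CPM in the earlier WT18 libraries, below the 602 to 666 CPM of control set 2 (-1.18 ± 0.17, adjusted p = 0.00065). The direction of tif5 depended on the control. With control set 2 as the reference it rose in WT18, T4A and each ALT allele, and it fell against control set 1 in T4A (-0.69, adjusted p = 0.012) and in ALT-P3A (-0.71), ALT-S5A (-0.59) and ALT-P6A (-0.58). In the authors' deposited tables tif5 also had negative values in these 4 alleles, from -0.74 to -0.60. The eIF1A gene tif11 had 374, 365 and 408 CPM in Y1F against 495 to 496 CPM in control set 1 (-0.42 ± 0.07, adjusted p = 0.00021).

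Among the elongation genes, tef101 had its lowest group mean in ALT-P3A (538 to 677 CPM) and its highest in S2A (2300 to 3120 CPM). The lowest single library was 1 of T4A with 458 CPM. By mean, between ALT-P3A and S2A lay T4A with 625, 934 and 458 CPM, control set 2 with 928, 855 and 720 CPM, Y1F with 1070, 1060 and 1000 CPM, ALT-P6A with 1030, 1030 and 1130 CPM, ALT-S5A with 1140, 905 and 1220 CPM, control set 1 with 1900, 1760 and 1580 CPM, and S2A-S7A with 2180, 2010 and 1760 CPM. In that order T4A overlapped ALT-P3A, control set 2 and ALT-S5A, control set 2 overlapped ALT-S5A, Y1F, ALT-P6A and ALT-S5A overlapped each other, and control set 1 overlapped S2A-S7A. The 4 WT18 libraries fell apart, with 2540 and 2240 CPM in the new and 982 and 785 CPM in the earlier ones. The sum of the 3 copies, which does not depend on how reads were split among them, was 7330 ± 1080 CPM in S2A, 5110 ± 478 CPM in control set 1, 5080 ± 555 CPM in S2A-S7A and 3140 ± 109 CPM in Y1F (SD, n = 3). It was 2500 ± 275 CPM in control set 2, 2900 ± 398 CPM in ALT-S5A, 2680 ± 147 CPM in ALT-P6A, 2010 ± 677 CPM in T4A and 1870 ± 176 CPM in ALT-P3A. In S2A the lowest library of this sum had 6150 CPM and in control set 1 the highest had 5580 CPM.

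In the authors' deposited tables tef101 had -0.95 in ALT-P3A, -0.83 in T4A, -0.17 in ALT-P6A and -0.13 in ALT-S5A. The fits against control set 2 gave -0.42, -0.37, 0.36 and 0.36 for these alleles and those against control set 1 gave -1.52, -1.43, -0.74 and -0.70. The sign in ALT-S5A and ALT-P6A thus depended on the reference. At an adjusted p under 0.05 by DESeq2 the authors' tables called 17 of the 52 genes higher and 15 lower in T4A. They called 7 and 14 in ALT-P3A, 12 and 10 in ALT-S5A, 9 and 11 in ALT-P6A and 20 and 14 in WT18. The eIF4A gene tif1 was called higher there in T4A and the 3 ALT alleles, by 0.45 to 0.52 on the log2 scale. The control means in the authors' tables of the 5 alleles of control set 2 could not be rebuilt from the 3 deposited control columns, with a median error of 14.45% over the 52 genes, whereas all other group means were rebuilt with a median error of 0%.

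**Figure D5:**
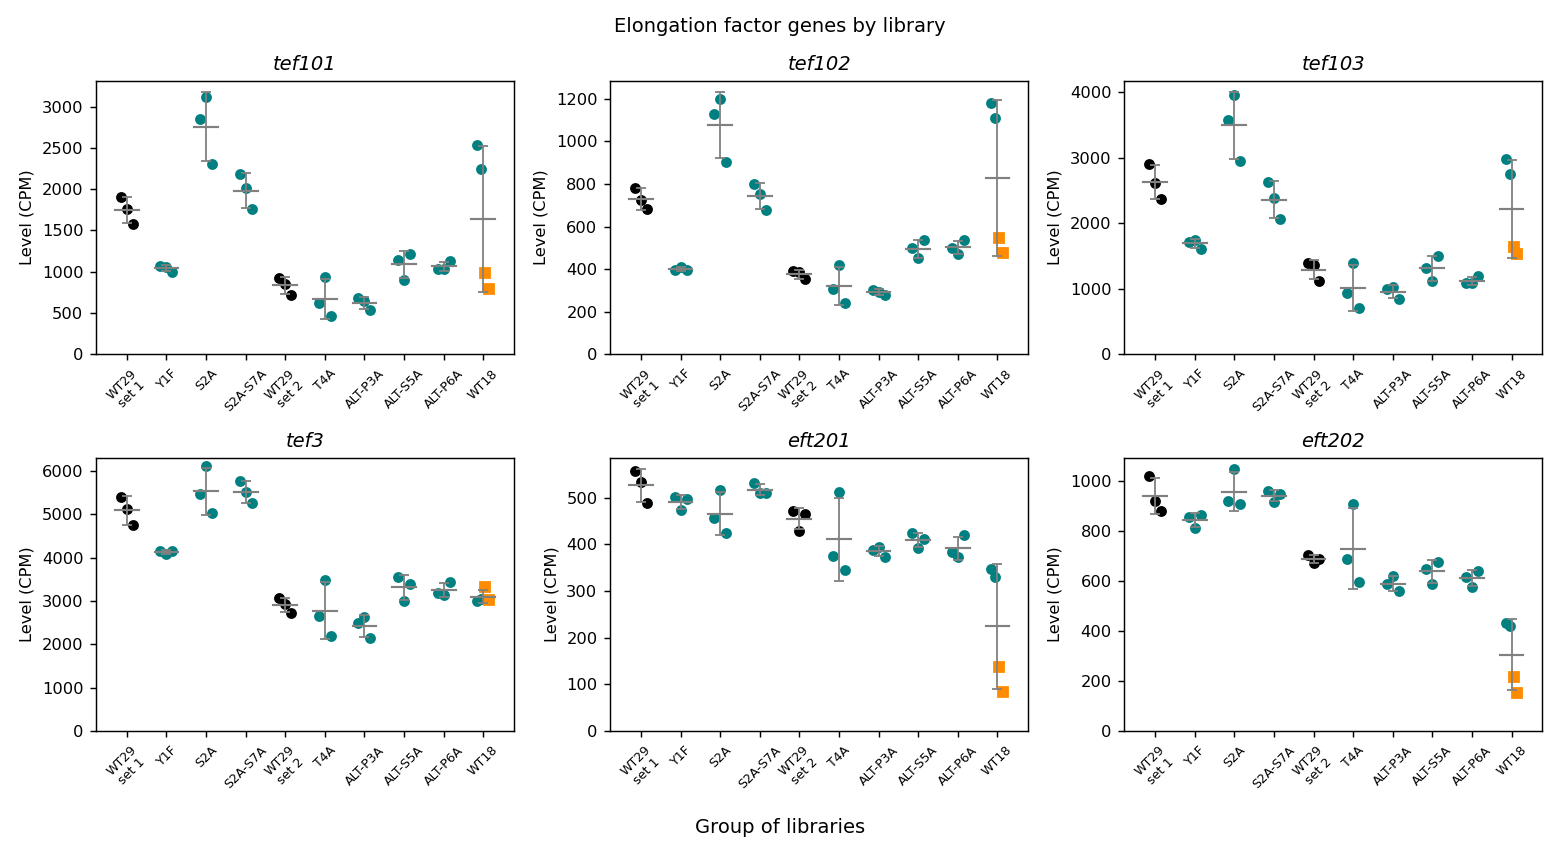
Level in CPM (vertical axis from 0) of the 3 eEF1A genes (tef101, tef102, tef103), the eEF3 gene (tef3) and the 2 eEF2 genes (eft201, eft202) in each of the 31 libraries, by group; black points are controls, orange squares the earlier WT18 libraries, lines and bars mean and SD. The eEF1A genes and tef3 have lower levels in set 2 than in set 1 of the controls, S2A has the highest mean of each eEF1A gene, and in WT18 the new libraries lie above the earlier ones in all genes but tef3.

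The sum of the eEF2 genes was 1470 ± 106 CPM in control set 1 and 1140 ± 37.5 CPM in control set 2 (SD, n = 3), and 976 ± 41.1 CPM in ALT-P3A, whose highest library had 1020 CPM and lay below the lowest of control set 2 with 1100 CPM. In WT18 the sum was 530 ± 277 CPM (SD, n = 4), from 236 to 781 CPM. The gene eft202 had -0.62 in the new and -1.74 in the earlier WT18 libraries, both called. The eEF1B beta gene tef5 fell in WT18 to 1690 and 1390 CPM in the new and 1270 and 959 CPM in the earlier libraries, from 2640 to 2850 CPM in control set 2 (-1.0 ± 0.19, adjusted p = 0.0023). The eEF3 gene tef3 had 3000, 3040, 3320 and 3030 CPM in WT18 and 3060, 2940 and 2720 CPM in control set 2, and its log2 fold change was 0.13 ± 0.10 (adjusted p = 0.27).

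Among the release and rescue genes, the eRF1 gene erf1 had 407, 441 and 421 CPM in ALT-P3A, 582, 563 and 602 CPM in ALT-P6A, and 664, 593 and 621 CPM in control set 2. All ALT-P3A libraries lay below the others, with -0.55 ± 0.06 against the control and -0.46 ± 0.05 against ALT-P6A (adjusted p = 0.0001). In Y1F it had 394, 377 and 401 CPM, below all 6 control libraries (-0.53 ± 0.08, adjusted p = 0.00012), and in WT18 241, 241, 313 and 353 CPM (-1.10 ± 0.14, adjusted p = 0.00042). In the authors' deposited table erf1 had 0.10 in ALT-P3A and 0.56 in ALT-P6A. Its partner sup35 (eRF3) fell in Y1F (-0.74 ± 0.08, adjusted p = 7.9e-06), T4A and ALT-P3A (-0.40 ± 0.09, adjusted p = 0.0096), and had -0.21 in WT18 (adjusted p = 0.16). The rescue factors Dom34 and Hbs1, which split ribosomes stalled on an mRNA, were lowest in S2A-S7A and highest in WT18: dom34 had 8.16, 10.4 and 9.79 CPM and hbs1 12, 15.5 and 15.2 CPM in S2A-S7A, against 38.3 to 58.7 CPM and 53.3 to 74.2 CPM in WT18. Controls lay between them, with 12.3 to 21.6 CPM of dom34 and 18.8 to 29.6 CPM of hbs1 over both sets. In S2A-S7A dom34 had -0.93 ± 0.17 (adjusted p = 0.0018) and hbs1 -0.84 ± 0.16 (adjusted p = 0.0024), and in WT18 1.52 ± 0.23 (adjusted p = 0.00078) and 1.54 ± 0.16 (adjusted p = 0.00023).

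Of the mitochondrial factors, the EF-G gene mef1 had 90.2 and 84 CPM in the new and 109 and 95.9 CPM in the earlier WT18 libraries, against 20.4, 28.3 and 19.8 CPM in control set 2 (2.09 ± 0.16, adjusted p = 0.00017) and 30.6, 32.4 and 42.9 CPM in control set 1. The IF-3 gene mti3 had 29.4 and 24.5 CPM in the new and 27.4 and 25.6 CPM in the earlier libraries, against 2.65, 7.34 and 5.36 CPM in control set 2 (2.41 ± 0.33, adjusted p = 0.00052), and rrf1 rose by 2.05 ± 0.30 (adjusted p = 0.00068). WT18 lay above all 6 control libraries for these 3 genes. The eighth gene, tuf1, had 0.20 ± 0.17 (adjusted p = 0.32) in WT18 and -0.55 (adjusted p = 0.024) against control set 1. Of the 74 mitochondrial ribosomal protein genes 33 rose and 16 fell in WT18, with a median of 0.26, or 44.6% and 21.6% where 35.8% and 33.8% of all genes did.

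The EF-Tu gene tuf1 was lower in several alleles. It had 171, 164 and 168 CPM in Y1F, 127, 130 and 117 CPM in ALT-P3A, 343, 304 and 288 CPM in control set 1 and 217, 187 and 175 CPM in control set 2. ALT-P3A lay below both sets, and the authors' deposited table gives -1.08 there. The IF-2 gene mti2 fell against the assigned control in all 7 alleles with 29 heptads, with log2 fold changes from -0.71 in T4A to -0.43 in S2A, and rose in WT18 (0.39 ± 0.10, adjusted p = 0.0089), where it had 0.14 (adjusted p = 0.28) against control set 1. These comparisons share 2 control sets. Its levels were 30.2, 33.8 and 37.3 CPM in ALT-P6A, 29.8, 43.1 and 29.2 CPM in T4A, 56.6 to 63.5 CPM in control set 1 and 51.8 to 56.6 CPM in control set 2. Against the other set it was called in Y1F, T4A and the ALT alleles, and in S2A and S2A-S7A it had -0.26 (adjusted p = 0.11) and -0.23 (adjusted p = 0.12). In the authors' deposited tables mti2 was called lower in all 7 of these alleles, from -0.74 to -0.43.

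The EF-Ts gene tsf1 had 38.3, 41.9 and 46 CPM in S2A, 24.4, 27.4 and 26.2 CPM in S2A-S7A and 19.2, 20.6 and 27.4 CPM in control set 1. S2A lay above the other groups compared with control set 1 and above the controls. The release factor gene pth4 was at the edge of detection, with 0.167, 0.158 and 0.287 CPM in S2A, 0.223, 0.235 and 0.238 CPM in S2A-S7A, and 0.88 to 0.943 CPM in control set 1. It was below all libraries of both control sets in these 2 alleles and above them in WT18, with 1.86 to 2.61 CPM. With counts this low its fold changes are coarse.

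Direct contrasts need no control library for the fold change. S2A-S7A differs from S2A by the added S7A change, and between them 8 genes rose and 13 fell, against 17.5% and 16.9% of 6048 genes. Deviations of same-numbered libraries correlated at 0.46, 0.11 and 0.20, and with a replicate block 8 rose and 19 fell. The labels do not say that equal numbers mark paired libraries, so the values below are unpaired. The eEF1A genes tef103 (-0.54 ± 0.13, adjusted p = 0.012), tef102 (-0.51 ± 0.11, adjusted p = 0.0085) and tef101 (-0.45 ± 0.13, adjusted p = 0.022) were lower in S2A-S7A. Of the 11 eIF3 genes 4 were higher (tif38, sum1, eif6 and moe1, from 0.24 to 0.31) and 1 lower (tif32, -0.27). The named falls were cdc123 (-0.84 ± 0.23, adjusted p = 0.019), dom34 (-0.78 ± 0.16, adjusted p = 0.006), hbs1 (-0.74 ± 0.16, adjusted p = 0.0075) and tsf1 (-0.67 ± 0.15, adjusted p = 0.0074), and the rises were led by tif38 (0.31 ± 0.07, adjusted p = 0.012), erf1 (0.29, adjusted p = 0.04), tif222 (0.28, adjusted p = 0.018) and tif1 (0.27, adjusted p = 0.037). The counts hung on single libraries: 5 rose without replicate 1 of S2A, 2 without its replicate 3, and 2, 4 and 1 without replicates 1, 2 and 3 of S2A-S7A. Likewise 6 and 7 fell without replicates 2 and 3 of S2A, and 7 and 5 without replicates 1 and 3 of S2A-S7A. The call of cdc123 was lost without replicate 2 or 3 of S2A or replicate 1 or 3 of S2A-S7A. Those of erf1 and tif1 were lost without any library of either allele except replicate 2 of S2A, that of tif222 without replicate 3 of S2A or replicate 1 or 3 of S2A-S7A, and that of tif38 without replicate 3 of S2A-S7A.

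ALT-P3A and ALT-P6A change a different proline of the heptad, and between them 16 genes were lower and 4 higher in ALT-P3A, against 15.7% and 13.1% of 6148 genes, with 1 at least 2-fold against 3.2%. Of the 8 elongation genes 5 were lower: tef102 (-0.79 ± 0.06, adjusted p = 7.3e-06), tef101 (-0.78 ± 0.10, adjusted p = 0.00024), SPAC29A4.02c (-0.45 ± 0.08, adjusted p = 0.0016), tef3 (-0.42 ± 0.08, adjusted p = 0.0031) and tef5 (-0.25 ± 0.07, adjusted p = 0.023). The third eEF1A copy tef103 had -0.22 ± 0.09 (adjusted p = 0.099). For tef102 the libraries had 303, 294 and 277 CPM in ALT-P3A and 497, 473 and 535 CPM in ALT-P6A, with no overlap. The higher genes were pth4 (1.18 ± 0.32, adjusted p = 0.017), mef2 (0.45 ± 0.11, adjusted p = 0.014), clu1 (0.18, adjusted p = 0.033) and tif11 (0.17, adjusted p = 0.021). They rested on single libraries: without any 1 of the 6, 1 or 2 genes were higher. Falls among the cytosolic ribosomal protein genes were also common in this contrast, 54 of 130 with a median of -0.19.

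The other genes of the pathway, 18 that the product rule does not hold, were taken from a fixed list that includes eIF2 kinases, TOR kinases, the poly(A)-binding protein and enzymes that modify eIF5A or eEF2. In Y1F 8 of 18 fell and 2 rose, where 27.6% and 23.6% of all genes did. In ALT-P3A 10 fell and 2 rose, where 21% and 21.8% did, and in WT18 7 fell and 6 rose, 38.9% and 33.3% of the list, close to the 33.8% and 35.8% of all genes. These genes are given against the assigned control set only. The eIF2 kinase gene hri2 rose in Y1F (0.66, adjusted p = 0.00026), T4A (1.12, adjusted p = 0.0032), ALT-P3A (0.85, adjusted p = 0.0048), ALT-S5A (0.73, adjusted p = 0.0066), ALT-P6A (0.81, adjusted p = 0.0043) and WT18 (1.88, adjusted p = 0.0003) and fell in S2A-S7A (-0.51, adjusted p = 0.018). Between the control sets hri2 had -0.44 in set 2 against set 1 (adjusted p = 0.087), so part of the rises against set 2 may depend on the reference. The eIF2 kinase genes hri1 and gcn2 did not share this pattern. Against the assigned controls hri1 was called only in ALT-P3A, where it fell (-0.29, adjusted p = 0.04). There gcn2 was not called, and it rose only in Y1F (0.32, adjusted p = 0.015) and WT18 (0.56, adjusted p = 0.012). The gene dys1, whose product begins the hypusine modification of eIF5A, fell in ALT-P6A (-1.13, adjusted p = 1.7e-05), ALT-S5A (-0.95, adjusted p = 0.00012), WT18 (-0.73, adjusted p = 0.00061), ALT-P3A (-0.43, adjusted p = 0.0067) and S2A-S7A (-0.32, adjusted p = 0.019). It was higher in ALT-P3A than in ALT-P6A (0.70, adjusted p = 9.1e-05) and in control set 2 than in set 1 (0.34, adjusted p = 0.032). The poly(A)-binding protein gene pabp fell in Y1F (-0.65, adjusted p = 1.3e-05) and ALT-P3A (-0.42, adjusted p = 0.0024) and rose in WT18 (0.74, adjusted p = 0.00052), and it was 0.80 lower on the log2 scale in control set 2 than in set 1 (adjusted p = 5.1e-05). The transcription factor gene fil1, which acts in the response to amino acid starvation, fell in WT18 (-1.75, adjusted p = 0.00017), Y1F (-0.50, adjusted p = 8.6e-05) and S2A (-0.40, adjusted p = 0.0041) and rose in T4A (0.56, adjusted p = 0.0022). It was also lower in control set 2 than in set 1 (-0.64, adjusted p = 0.00028).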

How the data were processed

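Per the submitters' processing notes, reads were aligned with HISAT2 2.1.0, handled with SAMtools and counted per gene with HTSeq 0.10.0 on ASM294v2, and the deposited count table holds these raw counts for 31 libraries of 29 sample records. Whether counting used strand is not given in the sources used here, so antisense or overlapping transcripts cannot be told apart. The authors' deposited tables give DESeq2 log2 fold changes, adjusted p-values and group averages of size-factor-scaled counts, a signal on the scale of counts. The 3 columns of control set 2 were assigned to its record by elimination.

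From the counts, edgeR 4.0.16 (R 4.3.3) fitted each comparison over all genes (TMM scaling, filterByExpr, quasi-likelihood F test, Benjamini-Hochberg adjustment). Each allele was fitted with its control set only, and the direct contrasts also used that set for the spread. SE is the log2 fold change divided by the square root of F. Rose and fell mean an adjusted p under 0.05. CPM were scaled over all 31 libraries. The scripts were tested on simulated data. Depth was 15243598 to 35763201 counts, and 1 ID had 2 lines.

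The members and lists were chosen with earlier results of these data known. Genes named per comparison were up to 4 with the largest rise and 4 with the largest fall among called genes whose groups did not overlap, plus members that define a step of translation; others were chosen after their values were seen. Alternatives were DESeq2 1.42.0 size factors, its Wald test, no filter beyond 1 count, each library left out, the other control set, both sets together, a replicate block, and the new or the earlier WT18 libraries alone. For S2A-S7A and S2A, deviations of same-numbered libraries correlated at 0.46, 0.11 and 0.20, and the block gave 8 rises and 19 falls. Whether equal numbers mark paired libraries is not given. Names, exon lengths and coding identity came from another build, ASM294v3, so no coordinates or promoter sequences are given, and a planned promoter motif search was not run.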

Additional observations from a re-analysis of the deposited data

Results flagged for a closer look

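In WT18, the only group of 4 libraries, 4 of 52 genes had a library that stood apart from the other 3 by Dixon's test, which chance gives in about 1 in 20 groups. The eIF3i gene sum1 had 606 CPM in replicate 4 and 504 to 520 CPM in the others, and the eIF3h gene tif38 had 351 CPM in replicate 4 and 315 to 321 CPM in the others. The mitochondrial recycling factor gene rrf1 had 15.6 CPM in replicate 4 and 19.6 to 20.1 CPM in the others, and the eEF3 gene tef3 had 3320 CPM in replicate 3 and 3000 to 3040 CPM in the others. Replicates 3 and 4 are the earlier libraries. The 4 libraries are thus not of 1 kind, and the 52 genes are not independent, so the rate of 1 in 20 need not apply.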

How the results depend on the processing

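With the other control set, 18 genes rose and 12 fell in Y1F, 18 and 2 in S2A, 19 and 8 in S2A-S7A, 3 and 22 in T4A, 1 and 32 in ALT-P3A, 2 and 26 in ALT-S5A, 2 and 26 in ALT-P6A, and 15 rose in WT18. With both sets together 10 fell in Y1F, 2 fell in S2A, 3 rose and 10 fell in S2A-S7A, 3 rose in T4A, 7 fell in ALT-P3A, and 1 rose in ALT-S5A and in ALT-P6A. In ALT-P3A 0 rose with both sets together by edgeR at an adjusted p under 0.05 and 1 at an unadjusted p under 0.05. Signs turned with the other set for tef102 (0.06), tef101 (0.29) and tif213 (0.15) in Y1F, mef1 (0.05) and tuf1 (0.25) in S2A, tif45 (-0.11) in T4A, rrf1 (-0.11) and mti3 (-0.06) in ALT-P3A, tif5 (-0.59) and tif212 (-0.29) in ALT-S5A and tif5 (-0.58) in ALT-P6A, and with both sets together for tif5 in ALT-S5A (-0.04) and ALT-P6A (-0.06). In Y1F 3 rose with DESeq2 size factors and 3 with its Wald test. Between the control sets 0 rose with size factors in edgeR, 2 at an unadjusted p under 0.05, and 1 with the DESeq2 Wald test. Without the filter 5 rose in S2A-S7A against S2A.

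With the replicate block 15 fell in S2A and 8 rose in ALT-P3A against ALT-P6A, the 2 alleles alone. In neither comparison, nor in Y1F or S2A-S7A against control set 1, did deviations correlate positively in every same-numbered pair. No paired analysis was possible for any comparison with control set 2 because its groups share fewer than 2 replicate numbers. Leaving out 1 library gave 0 to 7 rises in Y1F, 3 to 6 rises and 4 to 9 falls in S2A, 2 to 9 rises in S2A-S7A, 2 to 11 rises and 3 to 13 falls in T4A, 4 to 14 rises and 11 to 21 falls in ALT-P3A, 1 to 4 falls in ALT-S5A, 7 to 15 rises and 4 to 11 falls in ALT-P6A, 0 to 3 rises between the control sets, 1 to 7 rises and 5 to 14 falls in S2A-S7A against S2A, and 1 to 2 rises in ALT-P3A against ALT-P6A. Over 82 pairs of named gene and comparison, 757 results of the alternatives kept direction and call, 149 lost the call and 13 reversed. The causes were not tested.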

Other observations

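The genes that rose in WT18 had a median of 59.0 CPM in control set 2, from 0.806 to 1290 CPM, and those that fell had a median of 692 CPM, from 230 to 5790 CPM. Over all genes tested the medians were 18.8 CPM for 2202 risers and 130 CPM for 2078 fallers. These values describe the levels only, since the control libraries also enter the fold change.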
